A study of Mus musculus with 4 samples.

Results

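The proteasome is the protease that degrades proteins tagged with ubiquitin. The transcripts of 35 of its genes were examined in the cerebellum of wild-type (WT) and *Kdm3b*+/- mice. The 35 genes were taken by name and matched to NCBI gene identifiers, and all 35 were found among the 24532 identifiers of the expression tables. They comprise *Psma1* to *Psma7*, *Psmb1* to *Psmb10*, *Psmc1* to *Psmc6* and 12 *Psmd* genes, and the rule used no measured value. Bulk RNA came from granule-cell-enriched (GCE) tissue, cut by hand from slices of the cerebellar vermis, of 2 WT mice and 2 *Kdm3b*+/- mice, 1 library each. The study used adult males, with WT littermates as controls, and the labels name no treatment. The *Kdm3b*+/- mice carry the pGT0lxf gene-trap vector in an intron of 1 *Kdm3b* allele and descend from a single targeted ES cell line, with backcrossing to C57Bl/6N followed by crosses to C57Bl/6J. KDM3B is a demethylase of lysine 9 of histone H3, and the comparison asks which transcripts differ when 1 copy of its gene is trapped.

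The barrel-shaped 20S core holds the proteolytic sites inside its beta rings, between outer alpha rings that gate the entry. The 19S regulatory particle caps the core. Its base carries a ring of ATPases that unfold substrates, and its lid removes the ubiquitin chain. In neurons the proteasome is known to shape synaptic protein content, and interferon exchanges the catalytic beta subunits for the immunoproteasome subunits PSMB8, PSMB9 and PSMB10.

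Between 4.92 and 6.69 gigabases were aligned per library, computed as coverage over FPKM. *Kdm3b* itself (NCBI gene 277250) had TPM values of 9.10 and 10.996 (WT) against 8.30 and 7.90 (*Kdm3b*+/-) (log2 fold change −0.27, standard error (SE) 0.17, adjusted p = 0.424 from limma), and this counts reads upstream of the trap as well. The granule cell markers *Gabra6* and *Neurod1* had a TPM of at least 562 in every library. On average 6 of the 7 granule cell markers were higher in *Kdm3b*+/- mice, as were 39.6% of all tested genes. The groups overlapped for 4 of the 7. The exception, *Cbln3*, had 971 and 1229 (WT) against 769 and 851 (*Kdm3b*+/-), lower without overlap. The TPM summed over 8 Purkinje cell markers was 1521 and 622 (WT) against 846 and 673 (*Kdm3b*+/-), so WT mouse 1 stood above the other 3 libraries. It did so as well in the sum of 6 interneuron markers (458 and 205 against 260 and 244), to which *Pvalb* gave 290 and 80.2 against 161 and 145. The groups overlapped for *Pvalb*. The other 3 of the 4 interneuron markers tested, *Gad1*, *Gad2* and *Kit*, were lower in both *Kdm3b*+/- mice, against 32.0% of all tested genes. *Gad1* had 140 and 104 against 81.6 and 78.5. The sum of 4 red cell markers was also highest in WT mouse 1 (708 and 233 against 312 and 274), through *Hbb-bs* alone. This beta globin gene was at 506 in WT mouse 1 and at most 8.08 in the others. None of the other red cell markers was highest in WT mouse 1, and *Hba-a1* and *Alas2* were lowest there. *Hba-a1* had 73.7 and 115 (WT) against 143 and 134 (*Kdm3b*+/-), and *Hbb-bt* had 117 and 96.6 against 156 and 129. In such bulk tissue, fewer cells of a type and less RNA per cell cannot be told apart. Of the other marker lists, microglia summed to between 184 and 211 TPM and endothelium to between 268 and 310 over the 4 libraries. Bergmann glia and astrocytes summed to between 564 and 666, but their 6 markers were split, with a median log2 fold change of −0.28. *Aqp4* was higher past the test described below, and *Hopx* was higher in both *Kdm3b*+/- mice. The other 4 were lower in mean, of which *Gdf10*, *Aldh1l1* and *Slc1a3* were lower in both *Kdm3b*+/- mice. Of 6 oligodendrocyte markers, 1, *Mobp*, was lower past the same test. The part of cell composition in the proteasome values was not tested.

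TPM, the relative number of transcripts, is scaled to transcript length, so levels of different genes may be compared. Except for the immunoproteasome genes and *Psmd5*, each of the 35 genes had a mean TPM above that of 90.6% of the 13652 genes tested. The most abundant was *Psmc5*, a base ATPase, with a TPM of 1286 and 1143 (WT) against 1259 and 1275 (*Kdm3b*+/-). The TPM summed over all 35 genes was 12212 and 11328 (WT) against 13192 and 12738 (*Kdm3b*+/-). Both *Kdm3b*+/- sums lay above both WT sums.

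Differences between genotypes were tested with limma on log2(TPM + 1), a scale that understates differences of low genes, where the mean TPM reached 1, with Benjamini-Hochberg adjustment over all 13652 genes. Genes were called differentially expressed (DEX) below an adjusted p of 0.05 if the fold change also exceeded 1.2. None of the 35 genes was DEX, where 0.461% of all tested genes were (16 higher and 47 lower, or 29 and 40 with median-ratio scaling). The smallest adjusted p among them was 0.266. At an unadjusted p under 0.05, limma gave 4 of the 35 genes, all higher in *Kdm3b*+/- mice, against 17.0% of all tested genes in either direction and 5.47% in that direction. None of the 35 was DEX under any alternative of processing.

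Below that threshold the genes were not evenly placed. The mean was higher in *Kdm3b*+/- mice for 29 of the 35, while 39.6% of all tested genes had a higher mean. Both *Kdm3b*+/- values lay above both WT values for 22 genes (19.2% of all tested genes) and below them for 4 (32.0%), so 26 did not overlap in either direction (51.3%). The median log2 fold change was 0.16 over the 35 genes and −0.07 over all tested genes. The 95% interval of the fold change held 0 for 31 of the 35, and no interval reached beyond −0.67 or 0.66. Without WT mouse 2 the median was 0.079 and 24 genes had a higher mean, and without WT mouse 1, which stood apart in Purkinje cell markers, it was 0.20.

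**Figure D1:**
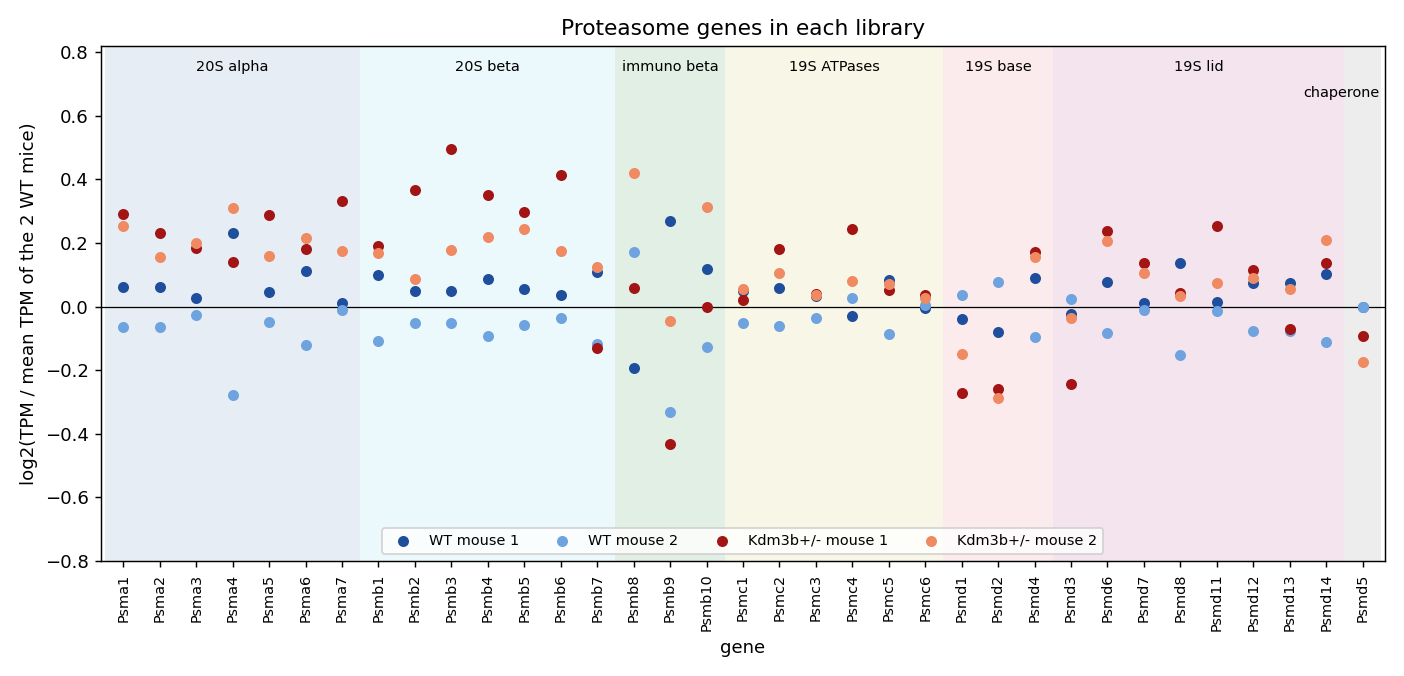
TPM of each proteasome gene in each library as log2 of its ratio to the mean of the 2 WT mice (vertical axis), by gene (horizontal axis) and subcomplex (shading); each point is 1 mouse. The *Kdm3b*+/- points lie above both WT points for 12 of the 14 genes of the 20S alpha and constitutive beta rings, and below both for *Psmd1*, *Psmd2*, *Psmd3* and *Psmd5*.

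The alpha ring was examined first. Its 7 subunits form the outer rings of the core. All 7 had a higher mean in *Kdm3b*+/- mice, from a log2 fold change of 0.19 in *Psma3* to 0.27 in *Psma1*, with a median of 0.22. The groups did not overlap for 6 of them, and without WT mouse 2 the value of *Psma4* was −0.0069.

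*Psma1* (NCBI gene 26440) had TPM values of 350 and 321 (WT) against 411 and 400 (*Kdm3b*+/-). Both *Kdm3b*+/- values were above both WT values, with a log2 fold change of 0.27 (SE 0.12, adjusted p = 0.292 from limma). *Psma7* had 592 and 583 against 740 and 664, and *Kdm3b*+/- mouse 1 was the highest. *Psma2* had 448 and 410 against 504 and 477. *Psma3*, whose protein has a tail that reaches the gate of the core, had 227 and 219 against 253 and 256, a difference larger than the gap between mice of 1 genotype. *Psma5* had 221 and 208 against 262 and 240. *Psma6* had 373 and 317 against 392 and 401. For *Psma4* alone the groups overlapped, since WT mouse 1 had 280 and WT mouse 2 had 197, against 263 and 296. The deposited coverage of *Psma6* was 0.104 times, and that of *Psma7* 0.617 to 0.623 times, the coverage that their FPKM and the depth of the library give. That factor was nearly equal in all 4 libraries.

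The constitutive beta ring holds the active sites. PSMB6, PSMB7 and PSMB5 are the caspase-like, trypsin-like and chymotrypsin-like subunits. The other beta subunits are not catalytic. In 6 of the 7 genes the groups did not overlap and *Kdm3b*+/- mice were higher. The median log2 fold change was 0.27, or 0.18 without *Kdm3b*+/- mouse 1.

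*Psmb3* (NCBI gene 26446, chromosome 11, 97703434 to 97713500 in the deposited tables), a non-catalytic subunit, had the largest fold change of the 35 genes. Its TPM was 467 and 436 (WT) against 636 and 510 (*Kdm3b*+/-), with *Kdm3b*+/- mouse 1 well above mouse 2 (log2 fold change 0.34, SE 0.14, adjusted p = 0.266 from limma). *Psmb6* had 597 and 568 against 775 and 658 (0.29, SE 0.13, adjusted p = 0.281). *Psmb5* had 387 and 357 against 457 and 441 (0.27, SE 0.12, adjusted p = 0.292), and here the mice of each genotype lay close together. *Psmb4* had 259 and 228 against 311 and 283, *Psmb2* had 358 and 334 against 446 and 367, and *Psmb1* had 424 and 368 against 452 and 445. All of these non-catalytic subunits were higher in both *Kdm3b*+/- mice.

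*Psmb7* did not share this pattern. Its TPM was 301 and 258 (WT) against 256 and 304 (*Kdm3b*+/-), a log2 fold change of 0.0016 with a 95% interval from −0.32 to 0.32. The groups overlapped fully, and the value was −0.037 with quantile normalization and −0.12 after correction for length and GC content. *Psmb7* shares 405 exonic bases with *Nek6* on the opposite strand, which had a TPM of 29.6 to 35.7, and no source used here says whether the reads were counted by strand.

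Mice of 1 genotype differed in the same genes. WT mouse 2 was below WT mouse 1 for all 14 genes of the alpha and constitutive beta rings, and *Kdm3b*+/- mouse 2 was below *Kdm3b*+/- mouse 1 for 10 of them. Genes measured in the same 4 libraries are not independent observations.

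Proteasome genes are known targets of NFE2L1, a transcription factor that binds the antioxidant response element. The promoters of 29 of the 35 genes were given by RefSeq on GRCm38.p6, as 31 windows of 300 bases from 250 bases before to 50 bases after the start. *Psmb1*, *Psmb2*, *Psmb7*, *Psmc3*, *Psmd3* and *Psmd7* had no entry. The core of the element was searched as TGACNNNGC on both strands. It was found in 4 windows (12.9%), those of *Psmb5*, *Psmb6*, *Psmc6* and *Psmd12*, and in 12.4% of the 32851 windows of all genes. The CCAAT box was found, on either strand, in 35.5% of the windows against 37.4% of all, and the GC box GGGCGG in 54.8% against 35.7%. The windows of all genes cover 27025 genes, while 13652 genes were tested here. Promoters of genes with like expression were not compared. Of the 12 windows of the alpha and constitutive beta rings, 6 held CCAAT, and of the 15 windows of the 19S particle, 4 did. The GC box went the other way, in 5 of those 12 and 10 of those 15 windows. A match of letters is a description and shows no binding.

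The 250 bases upstream of the start are shown for *Psmb5* and *Psmb6*, the catalytic subunits with a match close to the start, and for *Psmb3* and *Psmd2*, which had the highest and the lowest fold change. Capitals mark TGACNNNGC in *Psmb5* and *Psmb6* and CCAAT in *Psmb3*. *Psmd2* holds neither.
Psmb5 (chr14:54617996-54618245, minus strand): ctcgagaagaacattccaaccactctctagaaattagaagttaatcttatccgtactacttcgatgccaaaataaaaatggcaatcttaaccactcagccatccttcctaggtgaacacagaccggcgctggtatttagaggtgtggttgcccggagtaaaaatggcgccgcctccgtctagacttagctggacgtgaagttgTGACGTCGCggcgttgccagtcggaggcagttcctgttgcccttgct
Psmb6 (chr11:70525107-70525356, plus strand): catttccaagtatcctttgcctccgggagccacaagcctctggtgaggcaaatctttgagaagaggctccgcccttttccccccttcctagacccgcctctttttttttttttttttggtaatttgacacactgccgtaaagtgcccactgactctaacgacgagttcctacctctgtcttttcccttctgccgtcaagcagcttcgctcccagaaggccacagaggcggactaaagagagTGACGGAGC
Psmb3 (chr11:97703184-97703433, plus strand): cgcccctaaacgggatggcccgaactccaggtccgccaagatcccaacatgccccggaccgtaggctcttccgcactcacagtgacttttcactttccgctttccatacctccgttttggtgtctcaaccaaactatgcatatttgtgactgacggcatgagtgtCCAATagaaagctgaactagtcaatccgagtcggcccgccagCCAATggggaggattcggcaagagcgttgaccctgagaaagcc
Psmd2 (chr16:20651402-20651651, plus strand): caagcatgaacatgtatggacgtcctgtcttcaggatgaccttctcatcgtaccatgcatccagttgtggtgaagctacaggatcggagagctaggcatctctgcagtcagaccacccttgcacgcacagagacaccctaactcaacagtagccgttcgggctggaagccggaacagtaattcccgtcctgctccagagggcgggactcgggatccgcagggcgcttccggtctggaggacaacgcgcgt
The match spans bases −47 to −39 from the start in *Psmb5* and −9 to −1 in *Psmb6*. The CCAAT boxes of *Psmb3* begin at −85 and −43. The windows of *Psmb3* and *Psmd2* held no match to the antioxidant response element core.

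The mean TPM of the immunoproteasome genes was lower than that of every other gene of the 35. It exceeded that of 24.8% of tested genes in *Psmb9*, 40.6% in *Psmb8* and 64.1% in *Psmb10*. *Psmb8* had TPM values of 9.90 and 12.7 (WT) against 11.8 and 15.2 (*Kdm3b*+/-). *Psmb9* had 7.32 and 4.83 against 4.51 and 5.89, and *Psmb10* had 36.8 and 31.1 against 34.0 and 42.2. The groups overlapped for all 3 genes, and their adjusted p was between 0.546 and 0.705 (limma). *Psmb9* had a mean coverage of only 11.9 to 18.0 reads per base and the widest interval of the 35, from −0.67 to 0.31 on the log2 scale. Without WT mouse 1 its log2 fold change was 0.080 in place of −0.18.

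Each immunoproteasome subunit takes the place of 1 constitutive subunit, so their ratio was computed within each library. The ratio of *Psmb8* to *Psmb5* was 2.56% and 3.57% in WT libraries against 2.58% and 3.44% in *Kdm3b*+/- libraries. The ratio of *Psmb9* to *Psmb6* was 1.23% and 0.850% against 0.581% and 0.895%. These ratios overlapped between the genotypes. The ratio of *Psmb10* to *Psmb7* was 12.2% and 12.1% against 13.3% and 13.9%, and both *Kdm3b*+/- values were higher. The ratios were not tested, since an exact two-sided permutation test of these 4 mice gives p = 0.333 at best. *Psmb9* shares 212 exonic bases with *Tap1* on the opposite strand, whose TPM was at most 1.55.

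Genes of interferon response and antigen presentation, which are induced together with the immunoproteasome, gave no DEX gene among the 8 tested of 9 listed. Their median log2 fold change was −0.13. The peptide transporter gene *Tap2* had TPM values of 15.96 and 23.5 (WT) against 12.6 and 15.8 (*Kdm3b*+/-). *H2-D1*, a class I heavy chain, had 451 and 399 against 342 and 358. In both genes the *Kdm3b*+/- values were below the WT values, with adjusted p of 0.298 in *H2-D1* and 0.321 in *Tap2* (limma). The groups overlapped for *B2m*, *H2-K1*, *Tap1*, *Tapbp* and *Irf1*, and *Nlrc5* had a TPM of at most 0.144.

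The 19S base was examined next. Its 6 ATPases form the ring that unfolds substrates. Their log2 fold changes ran from 0.032 in *Psmc6* to 0.16 in *Psmc4* with a median of 0.051, and those of *Psmc1* and *Psmc3* turned negative with quantile normalization and that of *Psmc5* with length and GC correction. The median was 0.11 without WT mouse 1 and 0.021 without WT mouse 2. *Psmc6* (NCBI gene 67089) had TPM values of 159 and 160 (WT) against 164 and 163 (*Kdm3b*+/-), with a 95% interval of the log2 fold change from −0.25 to 0.31. *Psmc3* had 556 and 529 against 557.5 and 557.2. *Psmc1* had 652 and 607 against 639 and 654, and its groups overlapped as those of *Psmc5* did. *Psmc2* had 314 and 289 against 342 and 324, and *Psmc4* had 531 and 552 against 641 and 573. *Psmc3* shares 97 exonic bases with *Slc39a13* on the opposite strand.

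Of the 3 non-ATPase subunits of the base, 2 were lower in both *Kdm3b*+/- mice. PSMD2 and PSMD1 are the large scaffolds that receive ubiquitin receptors and shuttle factors. *Psmd2* (NCBI gene 21762, chromosome 16, 20651652 to 20663414 in the deposited tables) had the lowest fold change of the 35. Its TPM was 334 and 373 (WT) against 296 and 289 (*Kdm3b*+/-) (log2 fold change −0.27, SE 0.12, adjusted p = 0.304 from limma). *Psmd1* (NCBI gene 70247) had 170 and 179 against 144 and 157 (−0.21, SE 0.13, adjusted p = 0.424). In both genes the *Kdm3b*+/- mice lay below the WT mice, and *Psmd1* shares 301 exonic bases with *Gm21972* on its own strand. *Psmd4*, a ubiquitin receptor, had 544 and 478 against 575 and 569 and was higher.

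In the lid, 6 of 8 genes were higher on average in *Kdm3b*+/- mice. The median log2 fold change was 0.11, or 0.18 without WT mouse 1 and 0.049 without WT mouse 2. *Psmd14*, the deubiquitinase of the lid, had TPM values of 274 and 236 (WT) against 280 and 295 (*Kdm3b*+/-). *Psmd7*, its inactive partner, had 358 and 353 against 391 and 382. Both were higher in both *Kdm3b*+/- mice, as were *Psmd6* (243 and 217 against 271 and 265), *Psmd11* (293 and 288 against 346 and 305) and *Psmd12* (247 and 223 against 254 and 250). *Psmd3*, a scaffold subunit of the lid, had 311 and 321 against 267 and 308 and was lower, but its log2 fold change was 0.00037 after correction for length and GC content. The groups overlapped for *Psmd8*, with 305 and 250 against 285 and 283, and for *Psmd13*, with 175 and 157 against 158 and 173. *Psmd13* shares 152 exonic bases with *Sirt3* on the opposite strand, which was expressed at a TPM of 136 to 167. *Psmd5*, which encodes a chaperone of base assembly and is not a subunit of the finished particle, had 122.79 and 122.80 (WT) against 115 and 109 (*Kdm3b*+/-).

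**Figure D2:**
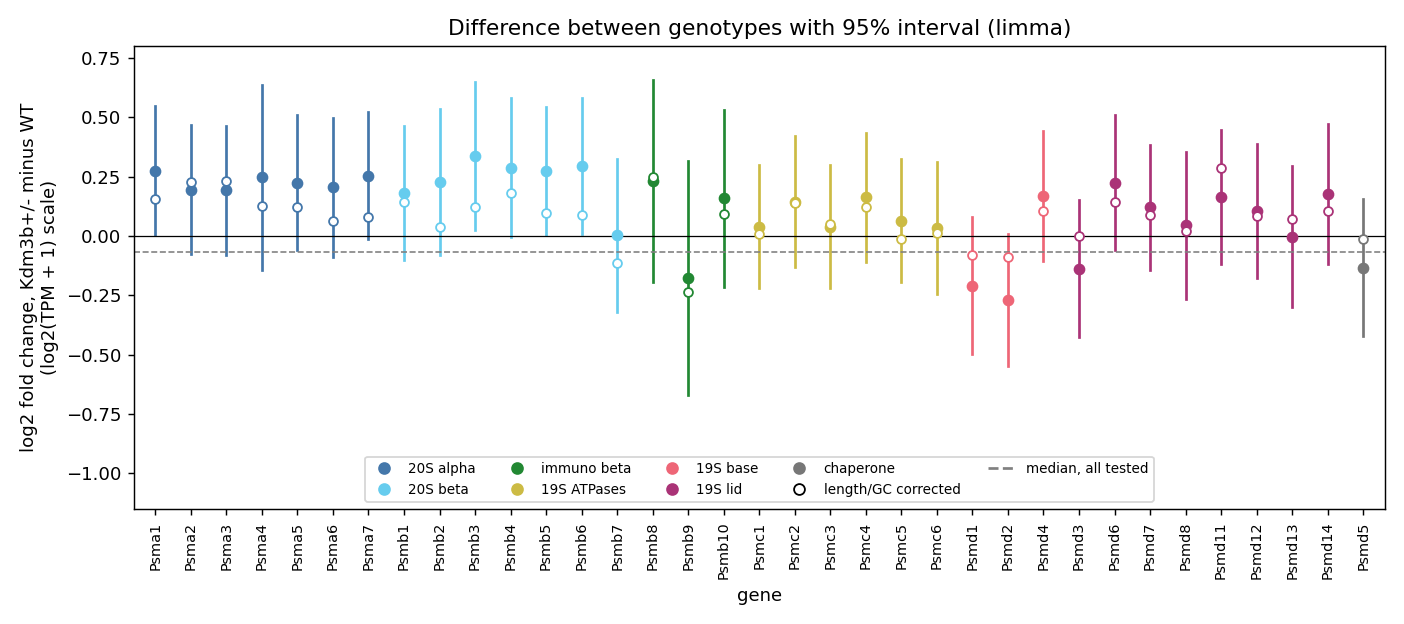
Log2 fold change of each proteasome gene, *Kdm3b*+/- minus WT on the log2(TPM + 1) scale (vertical axis), by gene and coloured by subcomplex; filled points and bars are the limma estimate and its 95% interval, open points the estimate after correction for transcript length and GC content, and the dashed line the median of all tested genes. The estimates run from −0.27 in *Psmd2* to 0.34 in *Psmb3*, and 31 of the 35 intervals hold 0.

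The core and the regulatory particle were then compared within each library. The TPM summed over the 14 genes of the alpha and constitutive beta rings was 5285 and 4802 (WT) against 6157 and 5742 (*Kdm3b*+/-). The sum over the 17 genes of the 19S particle was 6751 and 6354 against 6870 and 6824. The ratio of core to 19S was 0.783 and 0.756 in WT libraries (0.769 ± 0.019, SD, n = 2) against 0.896 and 0.841 in *Kdm3b*+/- libraries (0.869 ± 0.039, SD, n = 2). The groups did not overlap. Its distance between genotypes was larger than the gap between mice of 1 genotype.

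The subcomplexes differ in transcript length, and length moved with the fold change. The median transcript had 899 bases in the constitutive beta ring and 1201 in the alpha ring, but 1613.5 in the base ATPases, 1742.5 in the lid and 3001 in the non-ATPase base. Across the 35 genes the log2 fold change had a Pearson correlation of −0.63 and a Spearman correlation of −0.66 with the logarithm of length. Across the 12880 tested genes with a known length these were −0.25 and −0.27. These are correlations across genes that share 4 libraries, and genes are not independent replicates. GC content had a Pearson correlation of −0.048 with the fold change of the 35 genes.

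The proteasome genes were then set beside the tested genes of like length. The 5 genes with under 1000 bases had a median log2 fold change of 0.27, and the 817 tested genes of that length had 0.27 as well. From 1000 to under 1500 bases, 12 proteasome genes had a median of 0.19 and 1246 tested genes 0.12. From 1500 to under 2000 bases the medians were 0.11 for 10 proteasome genes and 0.014 for 1461 tested genes. From 2000 to under 3000 bases, 5 proteasome genes had a median of 0.16 and 2875 tested genes −0.12. *Psma2*, *Psma3* and *Psmd11*, with longest transcripts of 2911, 2846 and 2848 bases, had log2 fold changes of 0.19, 0.19 and 0.16. The transcripts expressed here may be shorter than the longest one, and their bin could then differ, which was not tested. The same lengths enter the correction below, which gave these genes 0.23, 0.23 and 0.29. The 3 longest, *Psmd2*, *Psmd1* and *Psmd5*, had a median of −0.21 against −0.14 for the 6481 tested genes of 3000 bases or more.

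**Figure D3:**
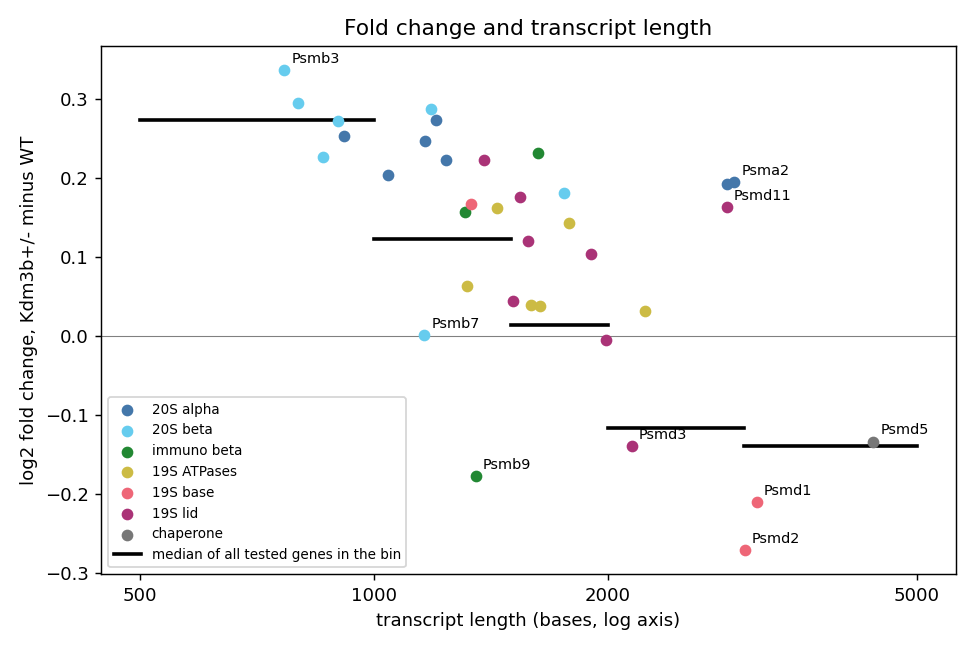
Log2 fold change, *Kdm3b*+/- minus WT (vertical axis), against transcript length in bases on a log axis (horizontal axis); points are proteasome genes coloured by subcomplex, and black lines the median of all tested genes in 5 bins of length. Length is that of the longest transcript with a RefSeq match. *Psma2*, *Psma3* and *Psmd11* are among the genes above the line of their bin. *Psmb7*, *Psmb9*, *Psmd1*, *Psmd2* and *Psmd3* are among those below theirs.

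With the libraries corrected for length and GC content, the median log2 fold change was 0.089 over the 35 genes and 0.0021 over all genes. It was 0.13 in the alpha ring, 0.094 in the constitutive beta ring, 0.032 in the base ATPases, 0.086 in the lid and −0.081 in the non-ATPase base. *Psmd1* and *Psmd2* kept negative values of −0.081 and −0.088, and *Psmb3* and *Psmb6* had 0.12 and 0.089. A higher mean in *Kdm3b*+/- mice was found for 29 of the 35 genes, against 50.5% of all genes. These were not the same 29 as before, since *Psmb7* and *Psmc5* turned negative and *Psmd3* and *Psmd13* positive. Of the 35, 16 had no overlap in that direction, against 24.5%. Non-overlap in the lower direction was found for 1 of the 35, against 23.5%. The ratio of core to 19S was 0.793 and 0.811 (WT) against 0.841 and 0.826 (*Kdm3b*+/-) after the correction. The groups still did not overlap, but the means differed less, at 0.802 ± 0.013 and 0.834 ± 0.010 (SD, n = 2 each). The nearest mice of different genotype (0.811 and 0.826) were then closer together than the 2 WT mice (0.793 and 0.811). This ratio was not tested.

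**Figure D4:**
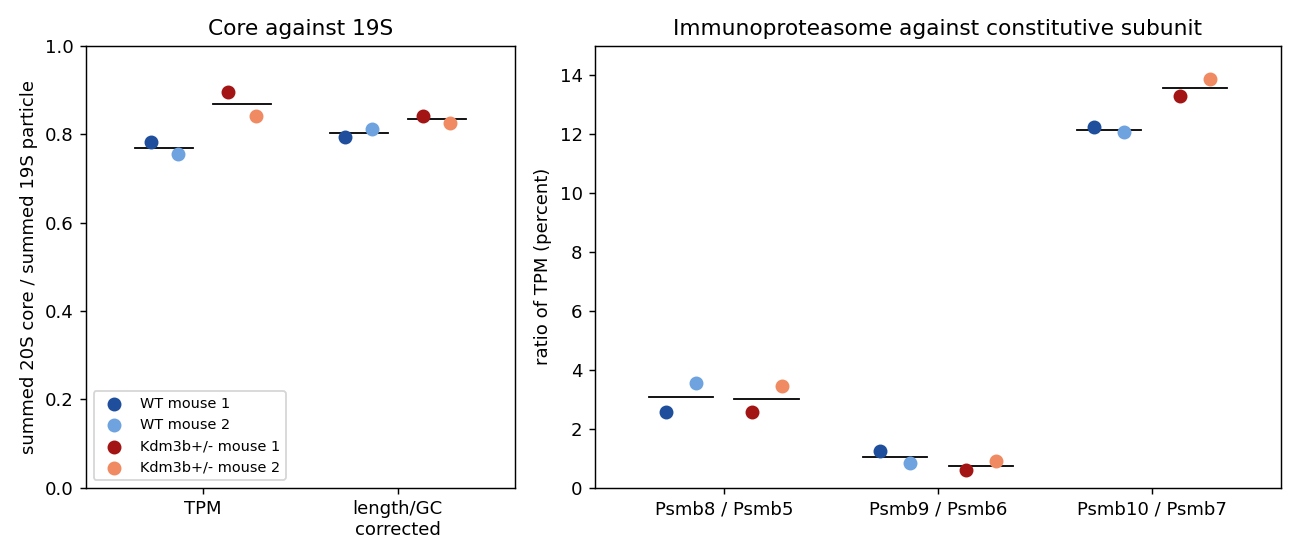
Ratios within each library: on the left the summed TPM of the 14 core genes over that of the 17 genes of the 19S particle, before and after correction for length and GC content, and on the right each immunoproteasome gene over its constitutive counterpart in percent; points are mice and lines group means. The *Kdm3b*+/- points lie above the WT points for core over 19S and for *Psmb10* over *Psmb7*, and overlap them for *Psmb8* over *Psmb5* and *Psmb9* over *Psmb6*.

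Other genes of the ubiquitin-proteasome pathway were taken from a list of 49, of which *Paaf1* was not matched and 45 were tested. None was DEX. At an unadjusted p under 0.05 limma gave 5 higher and 4 lower genes of the 45, against 5.47% and 11.5% of all tested genes. The median log2 fold change was −0.038, against −0.07 over all tested genes. The assembly chaperones were higher in mean in 7 of 7 genes, against 39.6% of all tested genes, with a median of 0.18. *Pomp*, which completes the core, had TPM values of 405 and 334 (WT) against 500 and 460 (*Kdm3b*+/-) (log2 fold change 0.38, adjusted p = 0.226). *Psmg4*, a chaperone of the alpha ring, had 15.5 and 16.8 against 21.4 and 23.4, and *Psmg1*, another, had 47.3 and 44.9 against 57.5 and 55.4. In all 3 the *Kdm3b*+/- mice were above the WT mice.

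Of the subunits outside the 35 genes, *Sem1*, a small lid subunit, had 160 and 147 against 220 and 214, the largest fold change of the pathway list (0.50, SE 0.13, adjusted p = 0.142 from limma). *Adrm1*, a ubiquitin receptor of the base, overlapped between the groups. *Psma8* and *Psmb11*, which encode the testis and thymus forms, had a TPM of at most 1.03 and 0.016. The caps other than the 19S and their inhibitor (*Psme1* to *Psme4* and *Psmf1*) had log2 fold changes from −0.14 to 0.22.

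Of the ubiquitin genes, *Rps27a*, which encodes ubiquitin fused to a ribosomal protein, had 121 and 106 against 148 and 145, without overlap. *Ubb*, a polyubiquitin gene, overlapped between the groups. *Uba1*, which activates ubiquitin, had 126 and 155 against 110 and 118.

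Genes that deliver substrates were lower in mean in 8 of 9, where 39.6% of all tested genes had a higher mean. For 5 of the 9 the groups did not overlap in the lower direction, against 32.0% of all tested genes. Their median was −0.32, or −0.067 after correction for length and GC content, and their median transcript had 3344 bases. *Vcp*, an unfoldase, had TPM values of 244 and 287 (WT) against 190 and 236 (*Kdm3b*+/-), and its cofactor *Nploc4* had 29.4 and 38.0 against 21.6 and 28.7. The shuttle genes *Ubqln1* (148 and 187 against 128 and 131) and *Ubqln4* (28.1 and 35.6 against 22.5 and 27.9) and the protease gene *Ddi2* (11.5 and 15.3 against 8.97 and 11.3) were lower as well, each without overlap. Of the 6 genes of proteins that associate with the proteasome, the ligase gene *Ube3c* had the lowest fold change, with 24.4 and 35.01 against 22.1 and 22.3.

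*Nfe2l1*, the factor named above, had TPM values of 57.9 and 63.9 (WT) against 38.5 and 51.2 (*Kdm3b*+/-). Its log2 fold change was −0.45 (SE 0.17, adjusted p = 0.244 from limma). *Nfe2l2*, a relative that acts in oxidative stress, had 22.2 and 24.6 against 19.8 and 18.4 (−0.28, adjusted p = 0.371). Both factors were lower in both *Kdm3b*+/- mice, while most of the core genes were higher. After correction for length and GC content, the median of this pair was −0.21, that of the assembly chaperones 0.15 and that of the delivery genes −0.067.

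**Figure D5:**
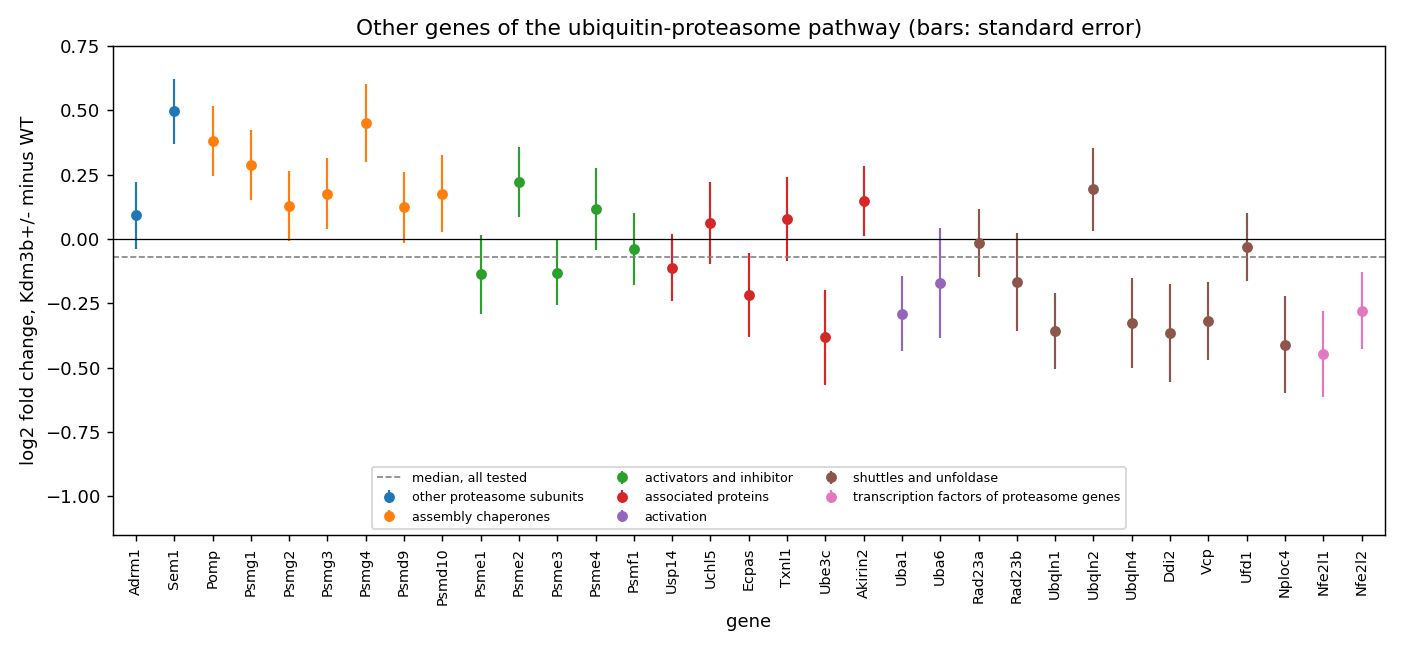
Log2 fold change, *Kdm3b*+/- minus WT (vertical axis), of tested pathway genes outside the 35, coloured by role, without the ubiquitin genes and the interferon and antigen presentation genes; bars are the limma standard error and the dashed line is the median of all tested genes. The 7 assembly chaperones lie above 0, and 8 of the 9 delivery genes and both transcription factors lie below it.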

How the data were processed

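RNA-seq libraries from GCE tissue of 2 WT and 2 *Kdm3b*+/- mice were grouped by the genotype in their labels. The authors trimmed low-quality bases, aligned reads with STAR and estimated abundance with StringTie; versions, build and annotation are not given in the sources used here. Of the matched identifiers, 90.5% had a start within 1 kb of RefSeq on GRCm38.p6. The deposited TPM is scaled by the authors to length and to a fixed total per library, the deposited FPKM to length and mapped reads, and the deposited coverage is an unscaled signal. TPM holds no counts, so the count test of the study was not repeated, and precision rests on 2 mice per group.

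Genotype was the only term of the limma test (3.58.1, trended eBayes, R 4.3.3). Robust fits used statmod (1.5.0); tables and figures used Python (3.11.15), NumPy (2.4.6), pandas (2.3.3) and Matplotlib (3.10.9). Transcript length and GC content are those of the longest GENCODE M21 transcript with a RefSeq match, found for 94.3% of tested genes, and were fitted by loess (span 0.3) in each library. Named were all 35 genes, *Kdm3b*, and listed pathway genes that had no overlap and a log2 fold change over 0.26 in size. Named as well were *Nfe2l1*, *Nfe2l2* and genes of antigen presentation. The named cell type markers, the genes that share exonic bases with proteasome genes and the other named pathway genes were chosen after seeing values. The 35 genes and the lists were chosen with earlier results of these data known. The interneuron, oligodendrocyte and red cell marker lists had median log2 fold changes of −0.41, 0.023 and 0.20 over 4, 6 and 4 tested genes. Meninges and fibroblast and choroid plexus markers, not described with the results, had medians of −0.52 and −0.71 over 4 and 1 tested genes. Alternatives were another pseudocount, unit, filter, scaling, variance model, choice among duplicate entries and threshold, the replicate number as a block, the length and GC correction, and each library left out. Results of 3 listed pathway genes are counted with their lists and are not reported here by themselves.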

Additional observations from a re-analysis of the deposited data

How the results depend on the processing

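None of the 35 proteasome genes was DEX under any of the 18 alternatives, and the smallest adjusted p, 0.105 for *Psmb3*, came with the replicate block. The replicate numbers of the labels were tried as a block, and deviations of same-numbered mice, which are different animals, correlated at 0.121 across genes. The fit with the block called 600 genes in all in place of 63. In this balanced layout it cannot change a fold change, so the medians stayed as they were by design. All genes called numbered 38 with FPKM, 1 without the filter on low TPM and 37 with eBayes without trend, and between 21 and 188 with a library left out, where the lone library of a group is assumed to vary like the others. The median of the 35 genes ran from 0.079 (without WT replicate 2) to 0.20 with libraries left out, and from 0.089 (length and GC correction) to 0.23 (median-ratio scaling) otherwise. That scaling moved the median of all genes from −0.07 to −0.0062. No sign change under any alternative was seen in 26 of the genes. The block, the filters and the variance models leave the fold change of each gene as it is, so they could not change a sign. *Psmb7* was −0.037 with quantile normalization and −0.12 after length and GC correction with or without the block. *Psmc1* and *Psmc3* were −0.020 and −0.034 with quantile normalization, and *Psmc5* and *Psmd3* were −0.015 and 0.00037 after that correction. *Psmd13* was 0.060 with FPKM, 0.067 with median-ratio scaling, 0.0038 without the 20 highest genes and 0.070 after the correction. With libraries left out, *Psma4* ran from −0.0069 to 0.50, *Psmb7* from −0.12 to 0.13, *Psmb9* from −0.43 to 0.080, *Psmc1* from −0.012 to 0.090, *Psmc5* from −0.022 to 0.15, *Psmd8* from −0.099 to 0.19 and *Psmd13* from −0.080 to 0.071. The causes were not tested.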
